A study of Mus musculus with 14 samples.

Results

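Dapl1, Nsg2, Slamf6 and Inpp4b were followed across 5 groups of mouse effector CD8+ T cells. They were selected on their log2 signal in wild-type (WT) cells, as genes among the largest reductions in KLRG1hi against KLRG1lo cells, so that difference is described here and not tested. They are 4 of 19937 genes named on the arrays and 4 of 14438 genes that passed a filter on low signal. Each is read by 1 probe set, and all 4 passed the filter.

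The study profiled 14 samples of C57BL/6J cells with 1 array each, taken on day 6 of infection with Listeria carrying ovalbumin. The donor cells came from fetal liver chimeras, were moved into congenic recipients 1 day before infection, and were purified by flow cytometry by their level of KLRG1. The KLRG1lo cells were Id2KOBimKO (2 arrays), Id2KO (2 arrays), BimKO (2 arrays) and WT (5 arrays), and WT KLRG1hi cells gave 3 arrays. The sample names give OT-I, a transgenic T cell receptor specific for an ovalbumin peptide, for all groups but Id2KOBimKO. Whether replicates came from separate mice is not given in the labels, so a p-value measures the spread between these samples, which may be technical. In sorted bulk samples, fewer cells that express a gene and less RNA per cell cannot be told apart.

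KLRG1 is an inhibitory receptor that marks terminally differentiated effector CD8+ T cells, while the KLRG1lo fraction holds most precursors of memory cells. Id2 binds E proteins and keeps them from binding DNA at E boxes. Bim, encoded by Bcl2l11, promotes cell death through mitochondria and removes many effector cells as a response ends. Slamf6, also called Ly108, is a receptor of the SLAM family that binds itself on neighbouring cells and signals through the adaptor SAP, the product of Sh2d1a. Inpp4b is a lipid phosphatase that removes a phosphate from a product of phosphoinositide kinases and so tempers signalling through Akt. Nsg2 is an endosomal protein known from mouse neurons, where it takes part in the trafficking of receptors. Dapl1 is a small relative of the death-associated protein Dap, known from epithelia, and in eggs of zebrafish and Xenopus it binds dormant ribosomes.

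Since Id2 acts on E proteins, the 250 bases upstream of the RefSeq start of each gene were searched for the E box CANNTG on both strands. Sequences are from RefSeq on GRCm38.p6, are written 5′ to 3′ on the plus strand, and carry E boxes in capitals. All 4 genes were matched by symbol. The Nsg2 stretch at chr11:32000349-32000378 holds the 3 E boxes of its window, and that of Inpp4b at chr8:81342333-81342362 holds 1 of its 2. The whole windows are shown for Slamf6 at chr1:171917212-171917461, which has a single E box, and for Dapl1 at chr2:59484403-59484652, which has none.
Nsg2: cagCAGGTGgtgcCAGATGaCAGGTGgtgt
Inpp4b: ggccaccaactcCATCTGtggcagggaggc
Slamf6: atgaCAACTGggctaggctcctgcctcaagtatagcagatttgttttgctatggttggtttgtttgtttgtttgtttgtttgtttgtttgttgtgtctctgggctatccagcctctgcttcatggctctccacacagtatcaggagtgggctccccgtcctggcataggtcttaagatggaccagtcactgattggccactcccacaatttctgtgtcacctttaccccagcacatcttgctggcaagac
Dapl1: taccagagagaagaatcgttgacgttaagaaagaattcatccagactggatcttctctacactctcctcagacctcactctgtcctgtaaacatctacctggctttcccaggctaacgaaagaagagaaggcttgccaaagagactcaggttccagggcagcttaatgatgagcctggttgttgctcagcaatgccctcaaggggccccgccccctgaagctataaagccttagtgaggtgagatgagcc

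Counted from the base before the start as -1, the 3 E boxes of Nsg2 begin at -67, -57 and -50, and both outer ones read CAGGTG. A second RefSeq start of Nsg2 has a window with 1 further E box, CATTTG. In Slamf6 the E box CAACTG begins at -246. Inpp4b has CATCTG and CAGTTG, which begin at -217 and -190. Of all 32851 upstream windows of this length, 66.2% hold CANNTG and 31.8% hold it at least 2 times. CAGGTG, which is one form of CANNTG, stands in 17.2% of windows and at least 2 times in 2.06%. A match is a run of letters and not a measured binding site.

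The labels were checked first. Id2 had a log2 signal of 9.74 ± 0.14 on Id2KOBimKO and 9.80 ± 0.10 on Id2KO arrays, against 10.84 ± 0.13 on BimKO and 10.93 ± 0.20 on WT KLRG1lo arrays (SD, n = 2, 2, 2 and 5). It fell by 1.13 in Id2KO cells against WT (SE 0.19, adjusted p = 0.0162). Bcl2l11 averaged 7.80 on Id2KOBimKO and 7.51 on BimKO arrays, against 7.96 on Id2KO and 7.60 on WT KLRG1lo arrays, so the absence of Bim rests on the labels. Klrg1 averaged 11.04 on WT KLRG1hi arrays and 6.27 on WT KLRG1lo arrays. All 7 CD8 T cell markers on the arrays lay above the array's median of probe sets without a gene name in every sample. Xist averaged 4.73 on Id2KO arrays and 8.90 to 10.11 in the other groups, and the Y-linked Eif2s3y 7.79 on Id2KO arrays and 3.04 to 3.45 elsewhere. Sex-linked transcripts therefore part the Id2KO arrays from all others, and what this adds to any Id2KO comparison was not tested.

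In wild-type cells the 4 genes were lower in KLRG1hi than in KLRG1lo cells, Dapl1 by far the most. All 4 had no overlap between the 2 groups, which held in this direction for 1.77% of all genes tested, and nothing is read from this count because the same values chose the genes. By size of fall Dapl1 was 1st, Nsg2 6th, Slamf6 9th and Inpp4b 14th of the 14438 genes.

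Dapl1 had log2 signals of 4.52, 4.46 and 4.80 on WT KLRG1hi arrays and 7.97, 9.01, 7.63, 7.21 and 7.89 on WT KLRG1lo arrays. The fitted difference was -3.35 (SE 0.30), or 10.2-fold. All 3 KLRG1hi values lay below the median of unnamed probe sets, which ran between 5.01 and 5.39 over the arrays, so the gene was near background there and the size of the fold is uncertain. Nsg2 had 5.56, 6.23 and 6.20 on WT KLRG1hi arrays and 7.64, 7.81, 7.43, 7.32 and 7.36 on WT KLRG1lo arrays. That is a difference of -1.51, or 2.85-fold, with the KLRG1hi values still above the median of unnamed probe sets.

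For Slamf6 the WT KLRG1hi arrays had 7.09, 7.23 and 8.11, and the WT KLRG1lo arrays 8.75, 9.16, 8.80, 8.78 and 9.0. Replicate 3 of the KLRG1hi cells stood closest to the KLRG1lo range. The difference was -1.43, or 2.69-fold. For Inpp4b the signals were 6.44, 6.28 and 6.91 on WT KLRG1hi arrays and 7.58, 8.04, 8.07, 7.59 and 8.20 on WT KLRG1lo arrays. The difference was -1.35, or 2.55-fold, and again replicate 3 was the highest KLRG1hi array. Beside Nsg2 in the ranking of falls stood H2-Aa and Aff3 above it and Gpr183 and Il7r below it. The ranking is by size alone, and some genes high in it did not pass. Snora3 stood 2nd, Cd74 3rd, H2-Aa 4th and Lyz2 10th, with adjusted p of 0.389, 0.398, 0.452 and 0.482. Inpp4b stood between Ccr7 and Myb above it and Tnfsf8 and Myc below it.

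**Figure D1:**
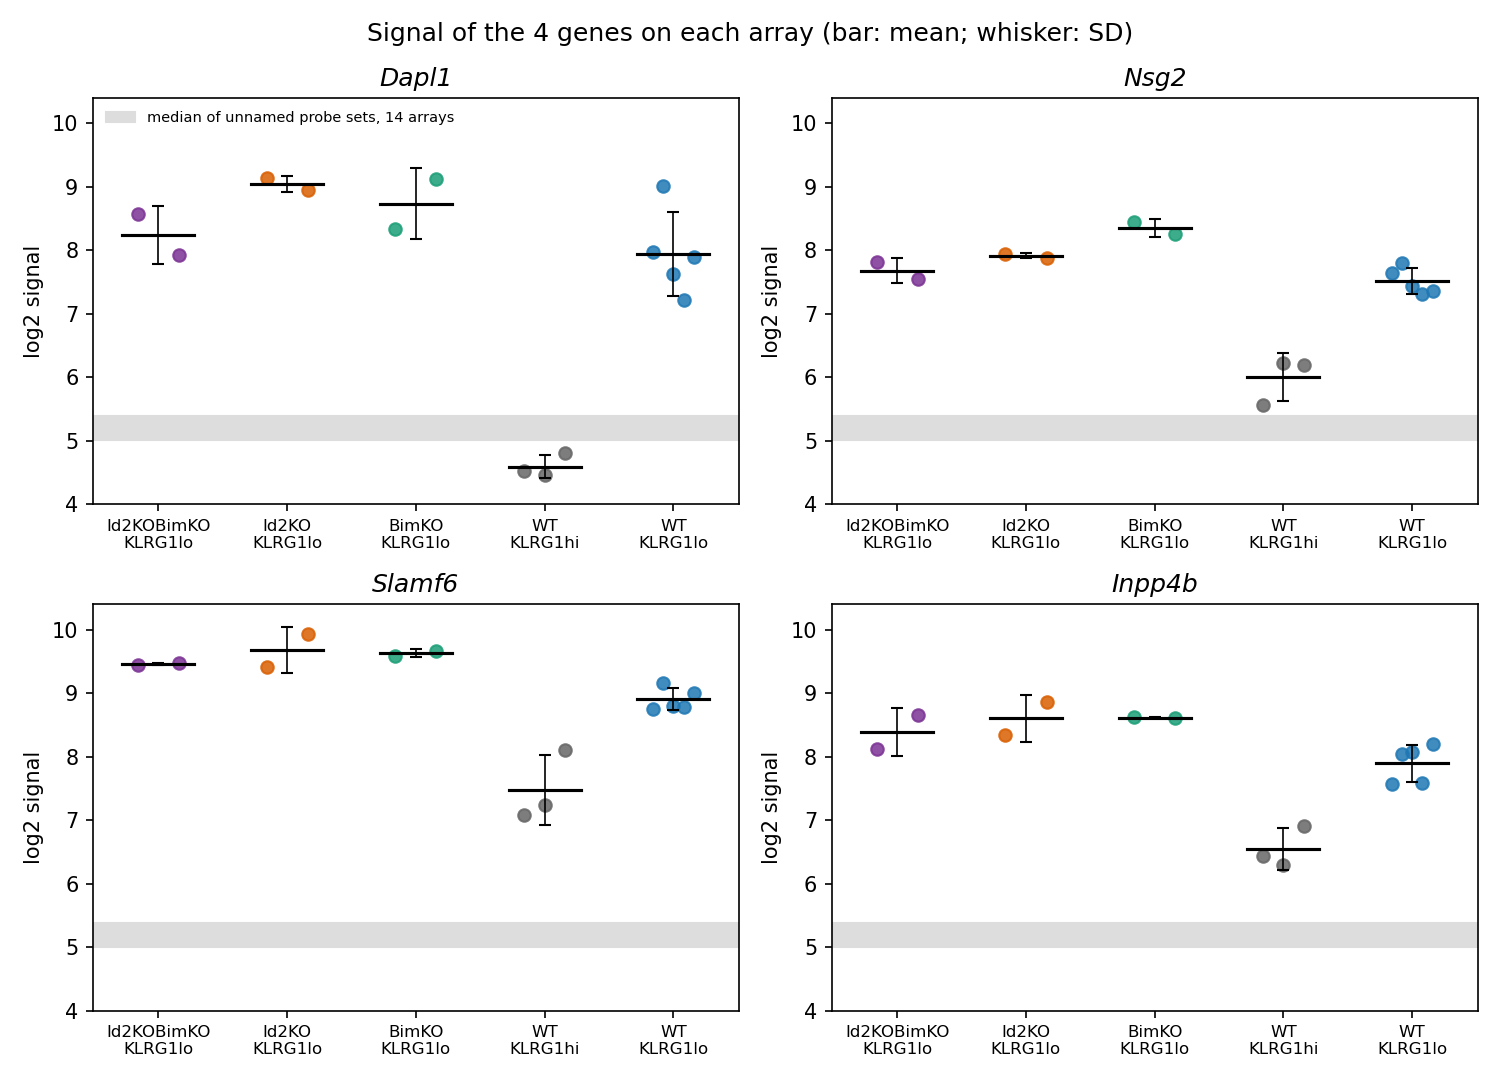
Log2 signal of Dapl1, Nsg2, Slamf6 and Inpp4b on each of the 14 arrays by group, with the mean (bar), SD (whisker) and the range of array medians of unnamed probe sets (grey band). The WT KLRG1hi arrays are the lowest for each gene, and only those of Dapl1 lie below the grey band.

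Id2KO and BimKO KLRG1lo cells each had higher mean signals of all 4 genes than WT KLRG1lo cells. Id2KOBimKO cells had lower means of all 4 than BimKO cells and than Id2KO cells. Id2KOBimKO and WT KLRG1lo means were 8.25 and 7.94 for Dapl1 and 7.68 and 7.51 for Nsg2. For Slamf6 they were 9.46 and 8.90, and for Inpp4b 8.39 and 7.89. The difference of Id2KOBimKO from WT KLRG1lo cells was not fitted. Of all genes tested, 52.2% had a higher mean in Id2KO and 47.3% in BimKO cells than in WT KLRG1lo cells, while 43.3% had a lower mean in Id2KOBimKO than in BimKO cells and 55.3% in Id2KOBimKO than in Id2KO cells. None of the members' differences passed the test over all genes. In the KLRG1lo mutants the 4 genes did not take on KLRG1hi levels. Their lowest mutant value lay 3.12 log2 units above the highest WT KLRG1hi value for Dapl1, 1.31 for Nsg2, 1.31 for Slamf6 and 1.21 for Inpp4b. Such a separation held for 3.75% of all genes, and the WT KLRG1hi arrays had helped to choose the 4.

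The differences within the Bim-deficient and within the Id2-deficient cells use no array that the choice of the genes used. Their SEs, intervals and p-values do, because the fit shares its variance over all arrays, including the WT arrays behind that choice. In Id2KOBimKO cells against BimKO cells, Dapl1 had 8.57 and 7.92 on the Id2KOBimKO arrays against 8.34 and 9.13 on the BimKO arrays, which overlap. Its difference was -0.49 (SE 0.41, 95% interval -1.35 to 0.37), and -0.88 to -0.098 when each of the 4 arrays was left out in turn. Nsg2, the endosomal protein, had 7.82 and 7.54 in Id2KOBimKO cells against 8.45 and 8.25 in BimKO cells, with no overlap and a difference of -0.67 (SE 0.23, 95% interval -1.16 to -0.17). Intervals are per gene and are not adjusted for the number of genes. Slamf6 had 9.44 and 9.47 in Id2KOBimKO cells against 9.58 and 9.67 in BimKO cells, a difference of -0.17 (SE 0.27). Inpp4b had 8.12 and 8.66 in Id2KOBimKO cells against 8.62 and 8.61 in BimKO cells, and its difference was -0.23 (SE 0.27). Without Id2KOBimKO replicate 1 the Inpp4b difference was 0.041. Each had an adjusted p of 1.00, and no gene of the 14438 passed in limma, while 262 (1.81%) had an unadjusted p under 0.05. Id2 itself, with a difference of -1.10 (SE 0.22, adjusted p = 0.587), did not pass either. Failing to pass here therefore does not show that a gene is unchanged. Nsg2 and Slamf6 lay lower on both Id2KOBimKO arrays than on both BimKO arrays, as did 12.0% of all genes.

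Set against Id2KO cells, Dapl1 had 8.57 and 7.92 in Id2KOBimKO cells against 9.14 and 8.96 in Id2KO cells, and the difference was -0.80 (SE 0.41, 95% interval -1.66 to 0.055). Nsg2 had 7.82 and 7.54 in Id2KOBimKO cells against 7.94 and 7.88 in Id2KO cells, and its difference was -0.23, and -0.37 to -0.095 with each array left out in turn. The values of Slamf6 were 9.44 and 9.47 in Id2KOBimKO cells against 9.42 and 9.93 in Id2KO cells, a difference of -0.22. Those of Inpp4b were 8.12 and 8.66 in Id2KOBimKO cells against 8.34 and 8.86 in Id2KO cells, with a difference of -0.21. Without Id2KO replicate 2 the differences were 0.040 for Slamf6 and 0.044 for Inpp4b, and without Id2KOBimKO replicate 1 that of Inpp4b was 0.056. The adjusted p of each was 1.00, and 4 genes passed in all (0.0277%). Dapl1 and Nsg2 did not overlap between these groups and were lower on the Id2KOBimKO arrays, as were 21.0% of all genes.

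The remaining comparisons use the WT KLRG1lo arrays, on which the 4 genes were chosen for being high, and they share those arrays with each other. In Id2KO against WT KLRG1lo cells the differences were 1.10 for Dapl1 (SE 0.34, 95% interval 0.39 to 1.82), 0.40 for Nsg2 (SE 0.20), 0.77 for Slamf6 (SE 0.23) and 0.71 for Inpp4b (SE 0.23). Each had an adjusted p of 0.275, and 16 genes (0.111%) passed, while 2613 (18.1%) had an unadjusted p under 0.05 in limma. Nsg2, Slamf6 and Inpp4b were higher on both Id2KO arrays than on all 5 WT KLRG1lo arrays, as were 14.2% of all genes. Dapl1 was not, because WT KLRG1lo replicate 2, at 9.01, exceeded the lower Id2KO array. Without that replicate the Dapl1 difference was 1.37 with an adjusted p of 0.0278, the only member value past the threshold in the mutant comparisons under any setting tried.

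In BimKO against WT KLRG1lo cells the differences were 0.79 for Dapl1 (SE 0.34), 0.84 for Nsg2 (SE 0.20, 95% interval 0.43 to 1.25), 0.73 for Slamf6 (SE 0.23) and 0.72 for Inpp4b (SE 0.23). Without BimKO replicate 2 the Dapl1 difference was 0.40. The adjusted p was 0.657 for each. No gene passed in limma, and 998 genes (6.91%) had an unadjusted p under 0.05. Among all genes ordered by this difference, Nsg2 stood 30th, Dapl1 43rd, Slamf6 59th and Inpp4b 64th from the top. For Id2KO against WT the places were 39th for Dapl1, 185th for Slamf6, 304th for Inpp4b and 2336th for Nsg2. Nsg2, Slamf6 and Inpp4b were higher on both BimKO arrays than on all 5 WT KLRG1lo arrays (5.6% of all genes). The same 3 stood above all WT KLRG1lo arrays on the Id2KO and the BimKO arrays at once, which 2.13% of genes did.

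**Figure D2:**
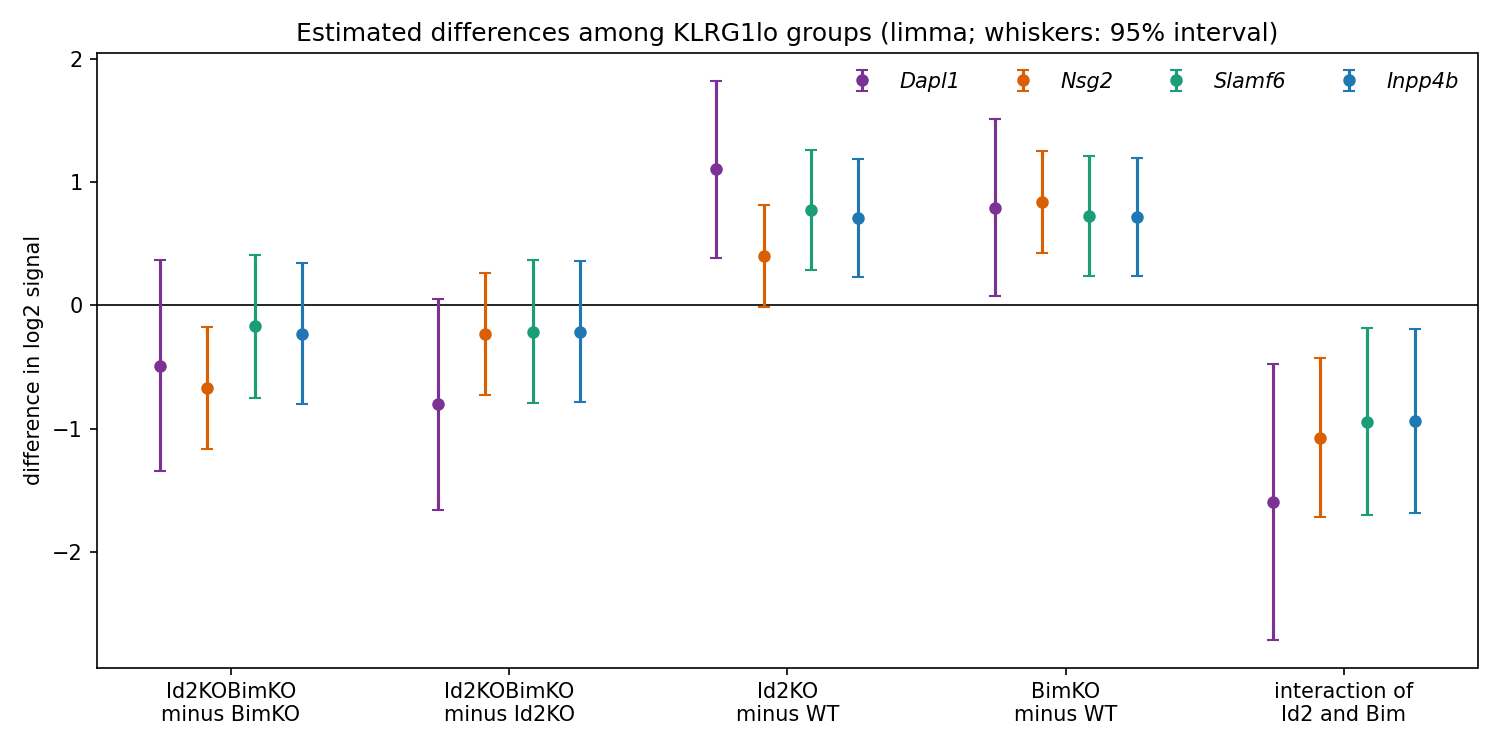
Fitted differences in log2 signal among KLRG1lo groups for the 4 genes, with 95% intervals from limma. The estimates for Id2KO and for BimKO against WT lie above 0 for each gene. Those for Id2KOBimKO against BimKO and against Id2KO, and for the interaction, lie below 0.

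The order of the KLRG1lo groups differed between the genes. Nsg2 had its highest mean in BimKO cells, at 8.35, against 7.91 in Id2KO, 7.68 in Id2KOBimKO and 7.51 in WT KLRG1lo cells. Id2KO was the top group for Dapl1, at 9.05, and overlapped BimKO at 8.74. For Slamf6 the means were 9.46 in Id2KOBimKO, 9.67 in Id2KO, 9.63 in BimKO and 8.90 in WT KLRG1lo cells. Its Id2KO and BimKO arrays lay above all WT KLRG1lo arrays, as did those of 2.13% of all genes. Of all genes, 5.29% were higher on both Id2KOBimKO arrays than on all WT KLRG1lo arrays, and Slamf6 was the only one of the 4. Inpp4b averaged 8.39 in Id2KOBimKO, 8.60 in Id2KO, 8.61 in BimKO and 7.89 in WT KLRG1lo cells, and the 3 mutant groups overlapped.

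The interaction asks whether the Id2 effect differs between Bim-deficient and Bim-sufficient cells. It was -1.59 for Dapl1 (SE 0.53), -1.07 for Nsg2 (SE 0.31), -0.94 for Slamf6 (SE 0.36) and -0.93 for Inpp4b (SE 0.35), each with an adjusted p of 0.726. It passed for 4 genes (0.0277%), none of them these. The mean Id2 effect over both backgrounds was 0.31 for Dapl1, -0.13 for Nsg2, 0.30 for Slamf6 and 0.24 for Inpp4b, with adjusted p of 0.655, 0.712, 0.620 and 0.629 in that order. It passed for 26 genes (0.18%). Over the alternative settings it ran -0.099 to 0.50 for Dapl1, which changed sign with the array spread as a covariate, -0.34 to -0.063 for Nsg2, 0.074 to 0.43 for Slamf6 and 0.098 to 0.37 for Inpp4b.

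**Figure D3:**
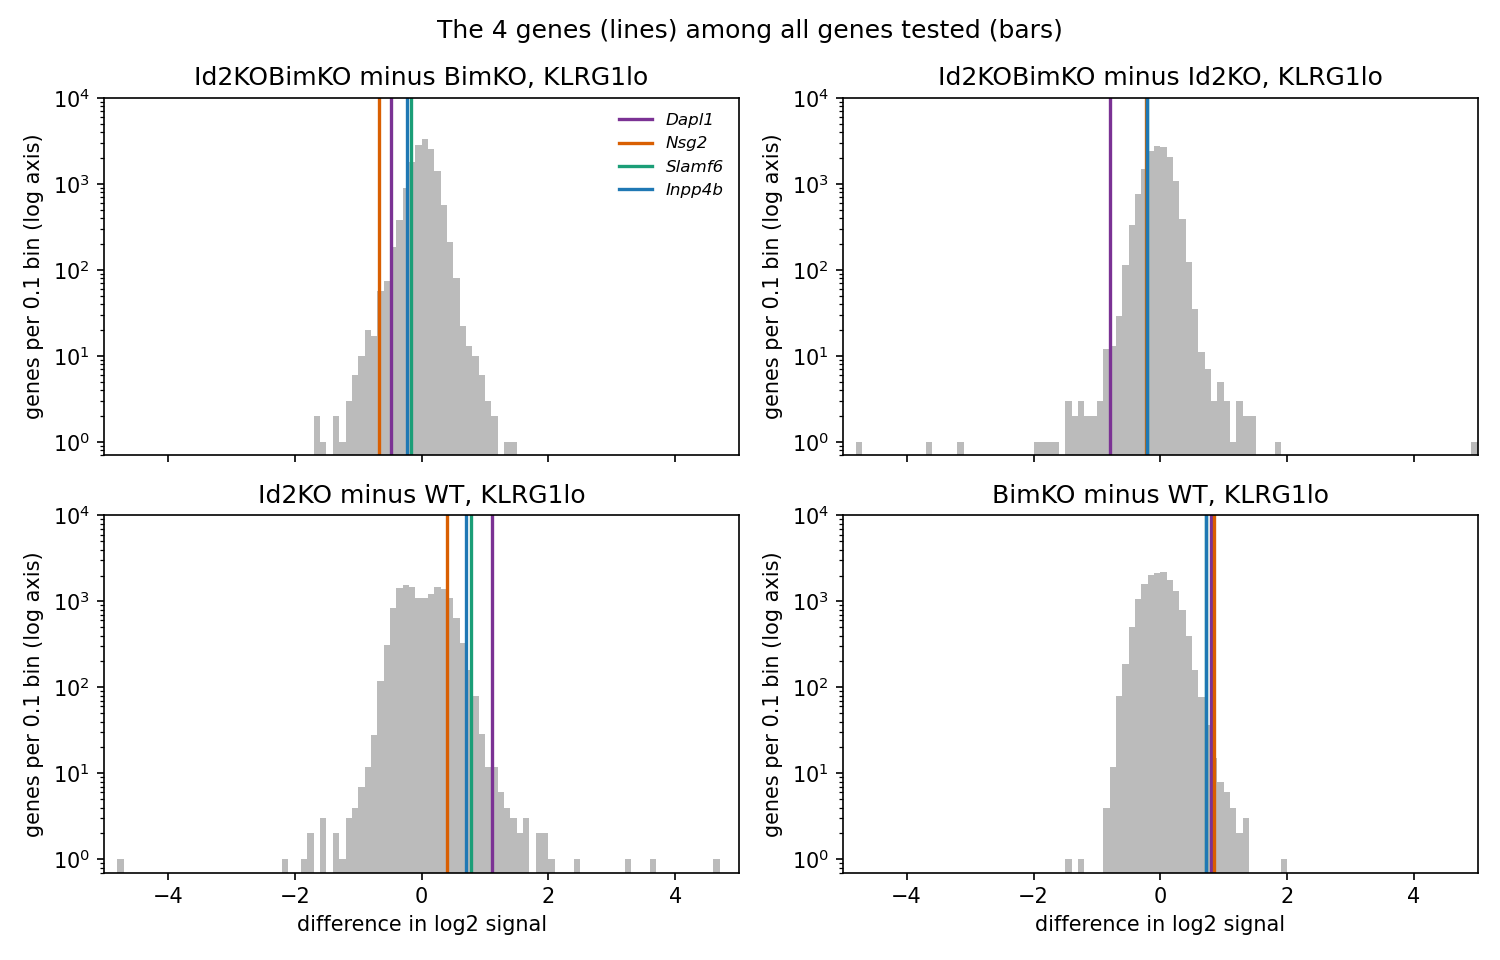
Histograms of the log2 difference over the 14438 genes tested, on a log count axis, for 4 comparisons among KLRG1lo groups, with the 4 genes as coloured lines. In BimKO against WT the lines lie between 0.72 and 0.84, in the upper tail, while in Id2KOBimKO against BimKO they lie between -0.67 and -0.17.

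The spread of the Id2KO arrays was wider than that of each WT KLRG1lo array, while that of the BimKO arrays lay within the WT KLRG1lo range. The interquartile range of log2 signal was 2.83 and 2.87 on Id2KO arrays, against 2.68, 2.82, 2.46, 2.48 and 2.57 on WT KLRG1lo arrays, and 2.62 and 2.70 on BimKO arrays. WT KLRG1lo replicate 2 had the widest range of its group and its highest Dapl1, Nsg2 and Slamf6. With the range as a covariate, Id2KO minus WT was 0.43 for Dapl1, 0.05 for Nsg2, 0.39 for Slamf6 and 0.61 for Inpp4b, while BimKO minus WT was 0.63, 0.75, 0.63 and 0.70 for the same genes. By the median of unnamed probe sets the arrays were cut into 6 low and 8 high ones. The cut was put at the largest gap, which was only 0.085 in values that ran between 5.01 and 5.39. The Id2KO arrays were 1 low and 1 high, and the WT KLRG1lo arrays 2 low and 3 high. Within the high set, 1 Id2KO array against 3 WT KLRG1lo arrays gave 1.38 for Dapl1, 0.51 for Nsg2, 1.07 for Slamf6 and 0.90 for Inpp4b. Within the low set, 1 against 2 arrays gave 0.65, 0.22, 0.46 and 0.54. Both BimKO arrays were in the high set, where BimKO minus WT was 1.16, 0.98, 0.76 and 0.66. The Id2KOBimKO arrays were 1 low and 1 high. Within the high set, 1 Id2KOBimKO array against 2 BimKO arrays gave -0.81 for Dapl1, -0.81 for Nsg2, -0.15 for Slamf6 and 0.04 for Inpp4b.

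**Figure D4:**
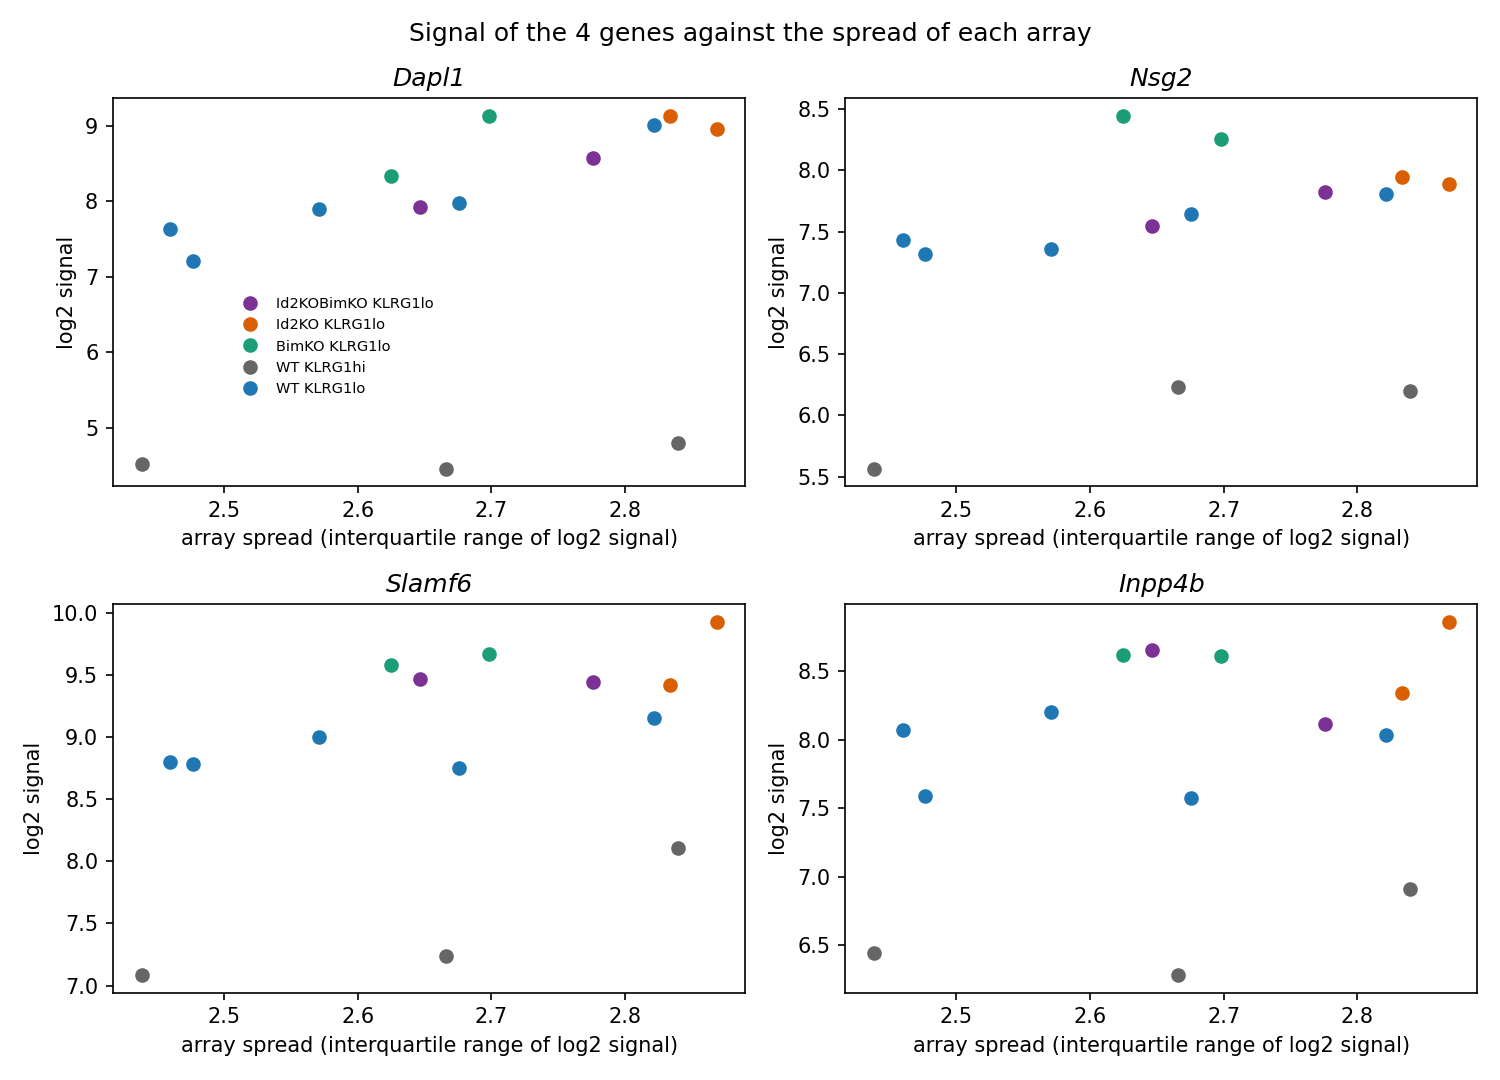
Log2 signal of the 4 genes against the interquartile range of log2 signal of each array, coloured by group. The Id2KO arrays, at 2.83 and 2.87, WT KLRG1hi replicate 3, at 2.84, and WT KLRG1lo replicate 2, at 2.82, lie at the right, and the WT KLRG1hi arrays lie lowest at any range.

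Summed signals of markers of other cells also varied between groups, though no marker tested passed in the mutant comparisons. Between WT KLRG1hi and WT KLRG1lo cells 1 of 2 NK cell markers tested passed, higher in KLRG1hi cells, and no marker of the other lists did. The summed linear signal of 7 B cell markers was 457 to 638 on Id2KOBimKO, 352 to 409 on Id2KO and 363 to 877 on BimKO arrays, against 297 to 368 on WT KLRG1hi and 386 to 932 on WT KLRG1lo arrays. In no group did its defining members Cd79a and Ms4a1 lie above the median of unnamed probe sets on every array. On WT KLRG1lo arrays Cd79a ran 4.84 to 6.91 with a median of 6.29, against 4.73 to 5.02 on WT KLRG1hi arrays. For Ms4a1 the values were 3.82 to 5.50 with a median of 4.61, against 4.19 to 4.23. The 7 markers of monocytes and macrophages summed to 210 to 276 on WT KLRG1hi and 236 to 808 on WT KLRG1lo arrays. The 4 NK cell markers summed to 624 to 1699 on WT KLRG1hi and 218 to 412 on WT KLRG1lo arrays. By mean log2 signal on these arrays, Klrb1c had 9.70 and 6.78, and Tyrobp 7.11 and 6.90. Klra8 had 4.26 and 3.95, while Ncr1 went the other way, with 3.83 and 4.18. No group had Ncr1 or Klra8 above the median of unnamed probe sets on every array. In the mutants the monocyte and macrophage sum was 232 to 388 on Id2KOBimKO, 205 to 213 on Id2KO and 231 to 485 on BimKO arrays, so Id2KO lay wholly below WT KLRG1lo. The 6 neutrophil markers summed to 156 to 182 on Id2KOBimKO, 135 to 170 on Id2KO and 176 to 300 on BimKO arrays, against 171 to 442 on WT KLRG1lo arrays. For 2 red cell precursor markers the sums were 109 to 626 on Id2KOBimKO, 93 to 105 on Id2KO and 112 to 231 on BimKO arrays, against 90 to 491 on WT KLRG1lo arrays. The 6 dendritic cell markers summed to 1395 to 2500 on WT KLRG1hi and 1228 to 1427 on WT KLRG1lo arrays. For 4 markers of CD4 and regulatory T cells the sums were 253 to 378 and 220 to 243 on the same arrays. The part of these cells in the differences was not tested.

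The pathways around the 4 genes were read from lists. Of 11 SLAM family and adaptor genes tested, 1 passed between WT KLRG1hi and KLRG1lo cells, where 136 of all genes (0.942%) passed: Cd244a, a SLAM receptor that recognises Cd48, rose by 1.45 (SE 0.30, adjusted p = 0.0259), opposite in sign to Slamf6. None passed in the mutant comparisons, where Sh2d1a had an Id2KO minus WT difference of 0.41 and a BimKO minus WT difference of 0.31. None of 23 phosphoinositide kinases, phosphatases and effectors passed in any comparison. In Id2KO against WT cells 20 of the 23 had positive differences with a median of 0.28, against 52.2% positive and a median of 0.030 over all genes. The 7 CD8 T cell markers had a median of 0.33 in the same comparison. In BimKO against WT cells 11 of the 23 were positive. Inpp4a, the nearest relative of Inpp4b, had differences of 0.12 in Id2KO and -0.08 in BimKO cells against WT. Dap, Nsg1 and Caly, the relatives of Dapl1 and Nsg2, did not pass in any comparison.

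Genes of memory precursor and naive T cells gave a longer list of 16 tested. Between WT KLRG1hi and WT KLRG1lo cells, with the same 0.942% of all genes passing, 6 of them fell, namely Myb, Il7r, Ccr7, Cxcr5, Il6st and Bach2. Il7r, the receptor for a survival cytokine, fell by 1.48 (adjusted p = 0.0017). In Id2KO against WT KLRG1lo cells 2 rose, where 16 of all genes (0.111%) passed, 12 of them higher. Cxcr5, a homing receptor for follicles, rose by 1.80 (SE 0.21, adjusted p = 0.000547), and Myb, a transcription factor, by 1.17 (SE 0.18, adjusted p = 0.00912). None passed in BimKO against WT cells, where 15 of 16 differences were positive with a median of 0.24, against 47.3% and a median of -0.018 over all genes. In Id2KO cells 15 of 16 were positive with a median of 0.40, against 52.2% and 0.030 over all genes. The CD8 T cell markers had medians of 0.33 in Id2KO and -0.058 in BimKO cells against WT. In Id2KOBimKO against BimKO cells 12 of 16 list genes were positive with a median of 0.15, against 56.7% and 0.031 over all genes. In Id2KOBimKO against Id2KO cells 5 of 16 were positive with a median of -0.083, against 44.7% and -0.028 over all genes. Dapl1, Nsg2, Slamf6 and Inpp4b had negative differences in both Id2KOBimKO comparisons.

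The 4 genes were chosen for their fall in the sort contrast, so high correlations with each other over the 14 arrays follow from the choice. The arrays also share differences in spread. Pearson correlations among the 4 ran 0.902 to 0.974 over the 14 arrays, and 0.544 to 0.901 over the 11 KLRG1lo arrays alone. Among all genes the profile most like that of Dapl1 was Mif (r = 0.957), followed by Myc, Ltb, Fchsd2 and Nsg2. Nsg2 was most like Myc (r = 0.957), then Il6st, Dapl1, Gpr183 and Slamf6. The closest to Slamf6 was Gpr183 (r = 0.984), then Mdn1, Dennd2d, Inpp4b and Aff3. Slamf6 itself was the closest to Inpp4b (r = 0.974), before Ddb2, Dennd2d, Mdn1 and Gbp9. These correlations are descriptions of 14 arrays and carry no test.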

How the data were processed

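Each of 14 samples was measured on 1 single-colour array. For 34760 probe sets the authors deposited linear intensity made with RMA, and only the values themselves show that the scale is linear. RMA and the mouse build mm9 are named per the submitters' processing notes, and versions are not given in the sources used here. How the arrays were centred against scanner output is unknown, since no scanner output was used here. Values were turned into log2 with no offset. Probe sets with a single gene name (21640 of them) were kept, 21553 were updated through RefSeq, 1321 carried several names and 11799 none. The probe set with the highest mean stood for a gene. A gene was tested when it lay above the 40th percentile on at least 2 arrays.

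Group means were fitted with limma 3.58.1 in R 4.3.3 on all 14 arrays (9 residual degrees of freedom), two-sided, with Benjamini-Hochberg adjustment over 14438 genes and a threshold of 0.05. Every adjusted p in the text comes from limma. The fit was tested on simulated data. Tables and figures were made with Python 3.11.15. The 4 genes, the gene lists and the markers were chosen with earlier results of these data known. Named genes were the 4, the label checks Id2, Bcl2l11 and Klrg1, the sex-linked Xist and Eif2s3y, list genes that passed or had the smallest p, the genes next to each member in the ranking and the 5 most correlated with each. Sh2d1a, Inpp4a, Nsg1 and Caly were also named as partners or relatives, with their values in view. The number of arrays limits the precision. Alternatives were other filters, quantile normalization, an offset of 16, a replicate block, a spread covariate, fits on the compared groups and leaving out each array.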

Additional observations from a re-analysis of the deposited data

How the results depend on the processing

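There were 24 differences of the 4 genes among KLRG1lo groups. Over all settings 411 of 416 values kept their sign, 5 changed it and 1 passed the threshold. Part of these values kept their sign by construction. Other filters, a mean over probe sets, a robust fit and fits on only the groups compared cannot move these differences. Groups of 2 arrays, Dapl1 near background in WT KLRG1hi cells and the spread of the Id2KO arrays limit the values. With quantile normalization 1 gene passed in Id2KOBimKO minus BimKO (0 as reported) and 226 in WT KLRG1hi minus WT KLRG1lo (136). With an offset of 16 the Dapl1 difference between WT KLRG1hi and WT KLRG1lo was -2.71. Over 21 same-numbered pairs of arrays from different groups, the correlations of deviations from group means ran between -0.52 and 0.41, and 10 exceeded 0.1. In groups of 2 arrays the deviations mirror each other, so some of these values repeat. Pairs with different numbers were not computed beside them, so whether the replicate numbers pair the samples cannot be told from these values. With the replicate block 5 genes passed in Id2KO minus WT (16), 8 for the mean Id2 effect (26) and 42 in WT KLRG1hi minus WT KLRG1lo, and no value of the 4 genes changed its side of the threshold. With the spread covariate 4 passed in Id2KOBimKO minus BimKO, 52 for the mean Id2 effect (27 higher and 25 lower, against 22 and 4) and 376 in WT KLRG1hi minus WT KLRG1lo (223 higher and 153 lower, against 98 and 38), and the Dapl1 mean Id2 effect was -0.099. Fits on only the groups compared gave 7 in Id2KOBimKO minus Id2KO (4), 26 in Id2KO minus WT and 78 in WT KLRG1hi minus WT KLRG1lo. When each array was left out in turn, counts ran 0 to 8 in BimKO minus WT, 4 to 39 in Id2KO minus WT, 0 to 3 in Id2KOBimKO minus BimKO, 13 to 31 for the mean Id2 effect and 45 to 179 in WT KLRG1hi minus WT KLRG1lo. A lone array left in a group is assumed there to vary like the other groups. Leaving out Id2KO replicate 1 gave 7 genes in Id2KO minus WT, leaving out its replicate 2 gave 4, and dropping WT KLRG1lo replicate 2 gave 39. The 8 and the 3 arose without BimKO replicate 1. The mean Id2 effect passed for 17 or 13 genes when an Id2KO array was dropped, and for 14 or 15 when it was an Id2KOBimKO array. The 45 came from dropping WT KLRG1hi replicate 2. Dropping replicate 1, 3, 4 or 5 of the WT KLRG1lo group left 89, 84, 87 or 73 in that order. Among single genes, Dapl1 ran 0.92 to 1.37 in Id2KO minus WT, 0.40 to 1.18 in BimKO minus WT and -0.88 to -0.098 in Id2KOBimKO minus BimKO. Nsg2 ran -0.37 to -0.095 in Id2KOBimKO minus Id2KO, Inpp4b -0.50 to 0.041 in Id2KOBimKO minus BimKO and -0.48 to 0.056 in Id2KOBimKO minus Id2KO, and Slamf6 -0.47 to 0.040 in Id2KOBimKO minus Id2KO. The cause of these changes was not tested.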
